A study of Homo sapiens with 4 samples.

Results

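The chemokines and cytokines of the secretory phenotype were taken as 10 genes, found by their symbols in the deposited table: CXCL8, CXCL1, CXCL2, CXCL3, CCL2, CCL20, IL1A, IL1B, LIF and LCN2. Of these, 8 have values in the libraries, out of 15220 genes with values in all. IL1A and IL1B have none. The values come from 2 mRNA libraries of PANC-1, a human pancreatic ductal adenocarcinoma line, and 2 of PZT-2, a knockdown clone derived from it. PZT-2 cells carry a stably integrated lentiviral vector, selected with puromycin, in which a U6 promoter drives shRNAs against H2A.Z.1 and against both H2A.Z.2 isoforms. PANC-1 cells were not transduced, and both lines were grown in the same medium to like passages. Since PZT-2 is a single clone, the knockdown, the vector, the selection and the choice of the clone cannot be told apart here. The study asked which genes change when H2A.Z is depleted, cell senescence being among the outcomes it followed. The study calls the replicates of a line biological, but the labels do not say that they were separate cultures, and the p-values measure only the spread between these libraries.

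Cells that stop dividing for good often secrete a mixture of inflammatory proteins, the senescence-associated secretory phenotype. Interleukin 1 alpha acts upstream in it: bound to its receptor it activates NF-kappa-B, which together with C/EBP factors switches on the genes of chemokines and other cytokines. Chemokines with the CXC motif, such as interleukin 8, draw neutrophils through the receptors CXCR1 and CXCR2, and CC chemokines draw monocytes and lymphocytes. In pancreatic ductal adenocarcinoma such factors are secreted by tumor cells as well as by the stroma, and neutrophils and macrophages are common in the tumor.

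Some of the genes hold a match to a site of NF-kappa-B just before their starts, so these sequences are shown first. RefSeq promoter sequences on GRCh38.p14 were at hand for 8 of the 10 genes. The 9 bases GGAATTTCC, the core of a site that NF-kappa-B is known to bind, were present on either strand within the 250 bases before the start in CXCL8, CXCL1, CXCL2 and CXCL3. Of all 35116 promoters of the same length, 145 (0.413%) held them. These letters were set by hand and not found by a search, so this share is a description and no test. CXCL1, CXCL2 and CXCL3 are also near-copies of each other here, so their matches are not independent. The longer NF-kappa-B consensus, which covers several spellings and overlaps the core, was matched in CXCL1, CXCL2, CXCL3, CCL20 and LCN2, and in 9.961% of all promoters. IL1A and IL1B held neither set of letters in this window. The lines below give 120 bases in the direction of each gene, ending at the base before the start, except for LCN2, where they run from base -195 to base -76. Capitals mark the matches to the core or to the consensus.
CXCL8, chr4:73740449-73740568, plus strand: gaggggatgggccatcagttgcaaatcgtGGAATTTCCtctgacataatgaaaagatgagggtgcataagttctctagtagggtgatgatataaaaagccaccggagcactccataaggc
CXCL1, chr4:73869273-73869392, plus strand: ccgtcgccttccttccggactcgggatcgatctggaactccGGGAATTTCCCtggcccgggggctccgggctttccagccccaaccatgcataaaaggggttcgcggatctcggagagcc
CXCL2, chr4:74099196-74099315, minus strand: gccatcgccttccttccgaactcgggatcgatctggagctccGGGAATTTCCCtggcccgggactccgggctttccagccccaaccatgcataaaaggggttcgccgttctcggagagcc
CXCL3, chr4:74038690-74038809, minus strand: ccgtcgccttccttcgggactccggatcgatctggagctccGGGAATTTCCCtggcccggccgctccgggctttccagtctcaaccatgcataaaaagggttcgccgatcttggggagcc
CCL20, chr2:227813722-227813841, plus strand: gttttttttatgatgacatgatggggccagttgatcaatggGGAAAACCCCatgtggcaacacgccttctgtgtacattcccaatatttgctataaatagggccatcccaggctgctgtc
LCN2, chr9:128149258-128149377, plus strand: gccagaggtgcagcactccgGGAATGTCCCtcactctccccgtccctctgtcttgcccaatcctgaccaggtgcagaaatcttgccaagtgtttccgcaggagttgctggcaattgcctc

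The match lay at bases -91 to -83 in CXCL8, -78 to -70 in CXCL1 and CXCL3, -77 to -69 in CXCL2, -79 to -70 in CCL20 and -175 to -166 in LCN2. Over these last 120 bases CXCL1 and CXCL2 were identical at 93.4% of the aligned positions, CXCL1 and CXCL3 at 90.8%, and CXCL2 and CXCL3 at 88.5%. The pairs that involved CXCL8, CCL20 or LCN2 were identical at 46.1% to 53.5%. A match to TTGCNNAA, letters that C/EBP factors bind, was found in CXCL2, IL1B and LCN2 and in 9.05% of all promoters. The CXCL8 line above holds ttgcaaat, which misses this pattern by its last base, so the lack of a match is not the lack of a site. TGANTCA, a pattern that covers the letters bound by AP-1, was found in CXCL8, IL1A and LCN2 and in 6.573% of all promoters. The letters were TGAATCA in LCN2, with an A at the open position, and TGACTCA in CXCL8. These matches are a description of the letters. No binding was measured in these libraries.

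In PZT-2 cells each of the 8 measured genes was higher than in PANC-1 cells. LCN2, CCL20, CXCL8, CXCL2, CXCL1 and CXCL3 rose the most, while CCL2 and LIF, the most abundant of the 8 by TPM in PANC-1 cells, rose by less than 2-fold. All 8 passed an adjusted p of 0.05 in edgeR's quasi-likelihood test over 15100 genes, of which 14.7% passed as higher in PZT-2 cells. With a further minimum of a 2-fold change, 6 of the 8 passed, against 2.93% of the genes tested. For all 8 the lower PZT-2 value exceeded the higher PANC-1 value, which was so for 33.3% of the genes tested. LCN2, CCL20 and CXCL3 reached the minimum of 5 counts in 2 libraries only with the help of the PZT-2 libraries, so their place in these counts is fixed in part by that minimum. CXCL8, CXCL1, CXCL2, CCL2 and LIF had at least 5 counts in each library. CXCL8 is also a gene that the study itself chose to follow in these lines, so its direction is not independent evidence. In bulk RNA, more cells that express a gene and more RNA of it per cell cannot be told apart.

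**Figure D1:**
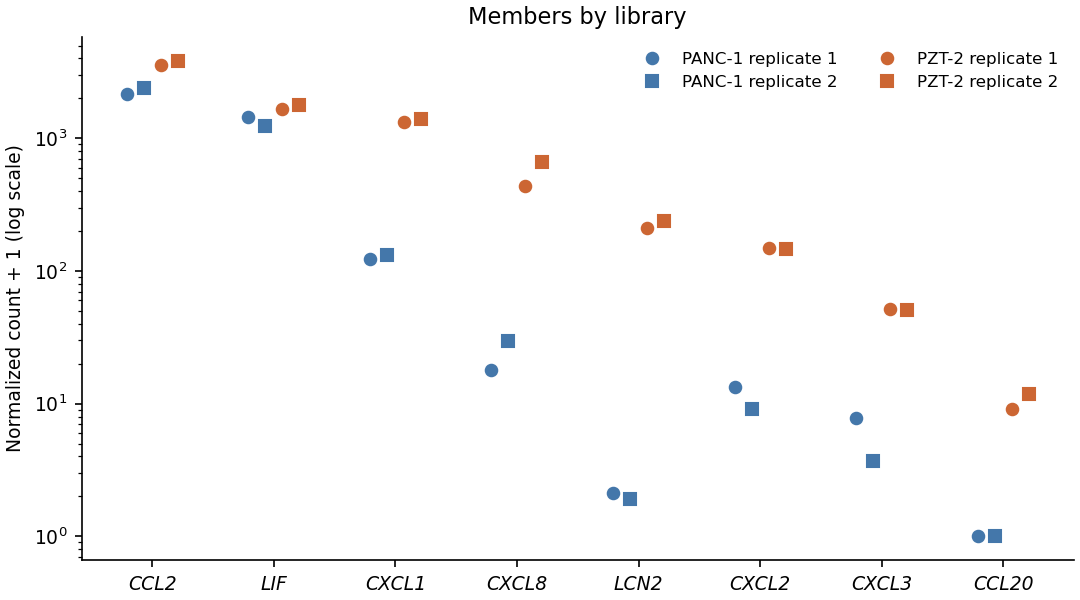
Normalized counts plus 1 of the 8 measured genes on a log axis, with 1 point for each library (circles replicate 1, squares replicate 2), in order of the PZT-2 mean. The PZT-2 points lie above the PANC-1 points for each gene, with a narrow gap for LIF and a wide gap for LCN2, and CCL20 sits at a normalized count of 0 in both PANC-1 libraries.

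Recovered counts came to 12861486 and 15717578 in the PANC-1 libraries and to 13955522 and 14175665 in the PZT-2 libraries. H2AFZ, the gene of H2A.Z.1, had normalized counts of 6389 and 6034 in PANC-1 cells and of 2212 and 2259 in PZT-2 cells. H2AFV, the gene of the H2A.Z.2 isoforms, had 3344 and 3452 against 2590 and 2717, so both targets were lower in both libraries of the clone. Of 8 ductal epithelial markers all had values, and they summed to 7370 and 7330 TPM in PANC-1 cells and to 3934 and 3855 TPM in PZT-2 cells. Nearly all of each sum was KRT8, KRT18 and KRT19, so it says little about the other markers. KRT8, KRT18, KRT19, CDH1 and MUC1 fell and SOX9 rose, while KRT7 and EPCAM did not pass the test. CDH1 went from 116 and 148 normalized counts in PANC-1 libraries to 0 and 18.8 in PZT-2 libraries. Of 10 leukocyte markers 4 had values, with sums of 122 and 116 TPM in PANC-1 cells and 124 and 119 TPM in PZT-2 cells, nearly all of it CD68, a lysosomal protein gene that epithelial cells also express. PTPRC, the pan-leukocyte marker, had no value in any library, nor had ITGAX, CD3E, MS4A1 or CSF1R. CD14 was called higher, from 0.278 and 0 TPM to 1.36 and 2.59 TPM, but reached the minimum count for testing only through the PZT-2 libraries. ITGAM did not pass, and LYZ did not reach that minimum and was not tested. Of 8 fibroblast and endothelial markers 3 had values, summing to 10.96 and 11.7 TPM in PANC-1 cells and to 4.01 and 3.31 TPM in PZT-2 cells, and COL1A1 fell. The part of the epithelial markers in the changes of the chemokines was not tested.

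CXCL8 encodes interleukin 8, the best known neutrophil attractant. Its normalized count was 16.9 and 28.9 in the PANC-1 libraries and 436 and 663 in the PZT-2 libraries. The groups did not overlap, and the lowest PZT-2 value was far above the highest PANC-1 value, though the replicates of each line stood apart from each other. The means were 22.9 ± 8.51 (SD, n = 2) and 549 ± 160.3 (SD, n = 2), a log2 fold change of 4.54 (standard error, SE, 0.309, adjusted p = 3.75e-04 from edgeR). When each library was left out it lay between 4.21 and 5.01. On the pooled counts, 47 in PANC-1 and 1103 in PZT-2 cells, the ratio was 23.4, with a 95% exact interval from 17.4 to 32.0 that covers counting error only.

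CXCL1, CXCL2 and CXCL3 encode the GRO chemokines, close relatives that act on CXCR2. CXCL1 was the most abundant of the CXC chemokines measured by TPM. It had normalized counts of 123 and 130.1 in PANC-1 and 1323 and 1404 in PZT-2 libraries. Its replicates lay close together, and the mean of the clone was 1363 ± 57.7 (SD, n = 2) against 126 ± 5.30 (SD, n = 2) in its parent line, with a log2 fold change of 3.43 (SE 0.0872, adjusted p = 4.08e-05 from edgeR). The normalized count of CXCL2 was 12.4 and 8.13 in PANC-1 and 149 and 144 in PZT-2 libraries. Its log2 fold change was 3.85 (SE 0.244, adjusted p = 2.98e-04 from edgeR), and the ratio of its pooled counts was 14.6 (95% exact interval 9.30 to 24.3, counting error only). That of CXCL3, the lowest of the GRO genes by TPM, was 6.75 and 2.71 in PANC-1 and 50.3 and 49.4 in PZT-2 libraries. Its log2 fold change was 3.42 (SE 0.446, adjusted p = 0.00285 from edgeR) and rested on 9 pooled counts in PANC-1 cells, so that the ratio of 11.1 had a 95% exact interval from 5.60 to 24.9. No test of a difference between the GRO genes in log2 fold change was made.

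Transcripts of the GRO genes share sequence, which limits how reads are divided among them. In GENCODE 29 transcripts, 16.12% of the 31-base words of CXCL1, 20.455% of those of CXCL2 and 9.569% of those of CXCL3 also occur in another gene, in each case another GRO gene and for CXCL1 and CXCL2 also the pseudogene CXCL1P1. The separate levels of CXCL1, CXCL2 and CXCL3 are therefore uncertain to the extent that kallisto shared reads between them. No word of CXCL8, CCL2, CCL20 or LCN2 occurs in another gene. For CXCL1 the table separates the coding transcript NM_001511 from the noncoding NR_046035. NM_001511 had 92.0 and 131 counts in PANC-1 and 1295 and 1399 in PZT-2 libraries (log2 fold change 3.59, adjusted p = 0.0348 from edgeR over separate transcripts). NR_046035 had 17.0 and 13.4 counts in PANC-1 and 18.8 and 20.8 in PZT-2 libraries (log2 fold change 0.36, adjusted p = 0.871), so its share of the counts of CXCL1 went from 15.6% and 9.34% to 1.43% and 1.47%. The difference in response between the transcripts was not tested.

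On chromosome 4 the RefSeq annotation of GRCh38.p14 places 9 protein-coding genes of CXC chemokines in a row, from CXCL8 to CXCL2. Of these, 6 have values and all 6 were called higher in PZT-2 cells, against 14.7% of the genes tested. CXCL5, CXCL6 and CXCL3 reached the count minimum only with the help of the PZT-2 libraries, so their part in this count was largely fixed by that minimum. Besides the 4 described above they are CXCL6 and CXCL5, which encode further CXCR2 ligands. CXCL5 had 1 count in each PANC-1 library and normalized counts of 88.6 and 126.6 in PZT-2 libraries (adjusted p = 3.90e-04 from edgeR). CXCL6 also had 1 count in each PANC-1 library and reached normalized counts of 17.1 and 24.7 in PZT-2 libraries (adjusted p = 0.00452 from edgeR). PF4V1, PF4 and PPBP, which encode platelet chemokines, had no values. The next gene with values beyond CXCL2, MTHFD2L, had 63.0 and 42.5 normalized counts in PANC-1 and 33.2 and 57.4 in PZT-2 libraries and did not pass (log2 fold change -0.21, adjusted p = 0.703 from edgeR). Further along, EREG, which encodes the EGFR ligand epiregulin, rose by 0.68 on the log2 scale (adjusted p = 0.0102 from edgeR), and AREG, which encodes amphiregulin, did not pass (log2 fold change -0.11, adjusted p = 0.810). PARM1, named after its values were seen, had 5.63 and 3.61 normalized counts in PANC-1 and 115 and 114 in PZT-2 libraries (adjusted p = 3.04e-04 from edgeR). PARM1 too reached the count minimum only with the help of the PZT-2 libraries. The 473 genes tested on chromosome 4 had a median log2 fold change of -0.01, and the medians of chromosomes 2, 9, 17 and 22, where the other measured genes lie, were 0.12, 0.01, 0.01 and 0.02.

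**Figure D2:**
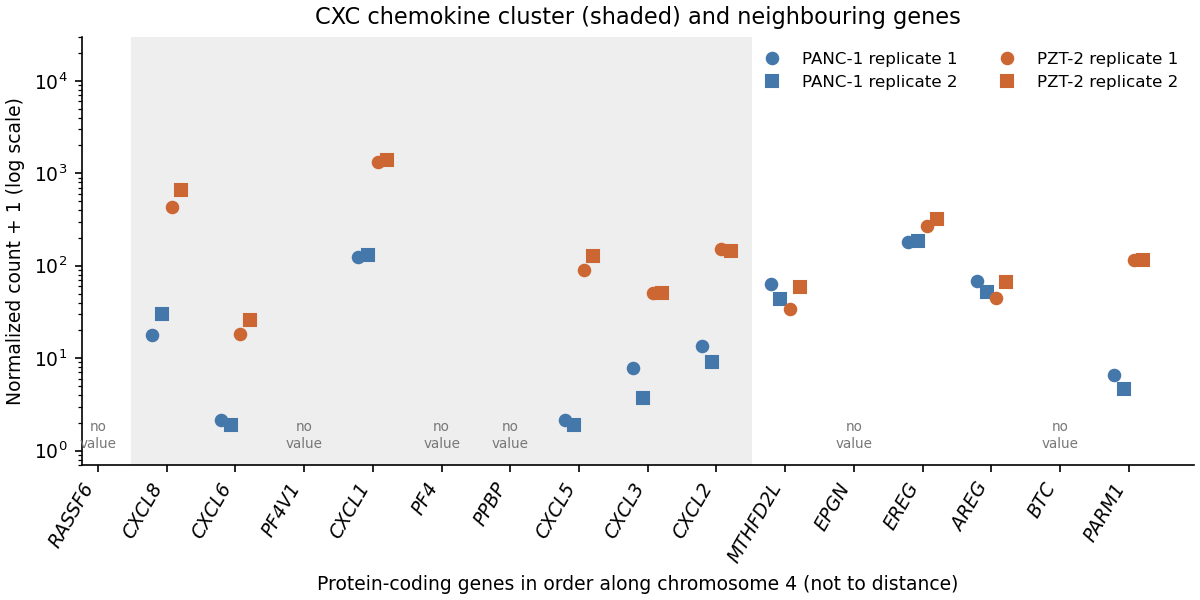
Normalized counts plus 1 on a log axis for protein-coding genes in their order along chromosome 4, with 1 point for each library and the genes from CXCL8 to CXCL2 shaded. The 6 shaded genes with values lie higher in both PZT-2 libraries, while the values of MTHFD2L and AREG overlap between the lines.

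CCL2 encodes the monocyte attractant MCP-1 and was by far the most abundant of the 8 genes in both lines by TPM. Its normalized count was 2146 and 2400 in PANC-1 and 3582 and 3855 in PZT-2 libraries. The groups did not overlap, and the mean of the clone was 3719 ± 193 (SD, n = 2) against 2273 ± 180.0 (SD, n = 2) in its parent line, with a log2 fold change of 0.71 (SE 0.0748, adjusted p = 0.00139 from edgeR). When each library was left out it lay between 0.63 and 0.79. The abundance per length of CCL2 in PANC-1 cells was already high, since only 2.23% and 1.90% of the genes with values reached it, and in PZT-2 cells 1.19% and 1.12% did.

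CCL20 encodes the ligand of CCR6, a receptor of lymphocytes and dendritic cells. Its estimated counts rounded to 0 in both PANC-1 libraries and came to 8 and 11 in PZT-2 libraries. Against a floor of 3 counts over both PANC-1 libraries it was 6.30-fold higher in PZT-2 cells (adjusted p = 0.0134 from edgeR). That ratio leaves out the counting error of the 19 pooled PZT-2 counts, so it is not a lower limit. The depth allows no closer statement on its level in PANC-1 cells, and the fitted log2 fold change of 6.26 depends on the small count that edgeR adds.

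LIF encodes leukemia inhibitory factor, a cytokine of the interleukin 6 family. Its normalized count was 1435 and 1229 in PANC-1 and 1668 and 1786 in PZT-2 libraries. The lowest PZT-2 value was above the highest PANC-1 value, but the gap was close to the distance between the PANC-1 replicates. The log2 fold change was 0.38 (SE 0.0882, adjusted p = 0.0219 from edgeR), the smallest of the 8. Leaving out PZT-2 replicate 1 gave LIF an adjusted p of 0.0562, and leaving out PZT-2 replicate 2 one of 0.129, so the call rests on having both. Most of the counts came from NM_002309, and the shorter NM_001257135 held 1.78%, 9.01%, 3.90% and 3.99% of them in PANC-1 replicates 1 and 2 and PZT-2 replicates 1 and 2. Of the 31-base words of NM_002309, 5.281% also occur in another gene, LIF-AS1 among them, which runs antisense to it.

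LCN2 encodes lipocalin 2, a secreted protein that binds bacterial siderophores and is a known NF-kappa-B target in epithelia. It had 1 count in each PANC-1 library and 208 and 238 counts in PZT-2 libraries. It thus went from almost none to 209 and 235 normalized counts. The ratio of the pooled counts was 222, with a 95% exact interval from 61.1 to 1838 that covers counting error only (adjusted p = 6.52e-05 from edgeR). The interval is wide because the PANC-1 side holds 2 counts.

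**Figure D3:**
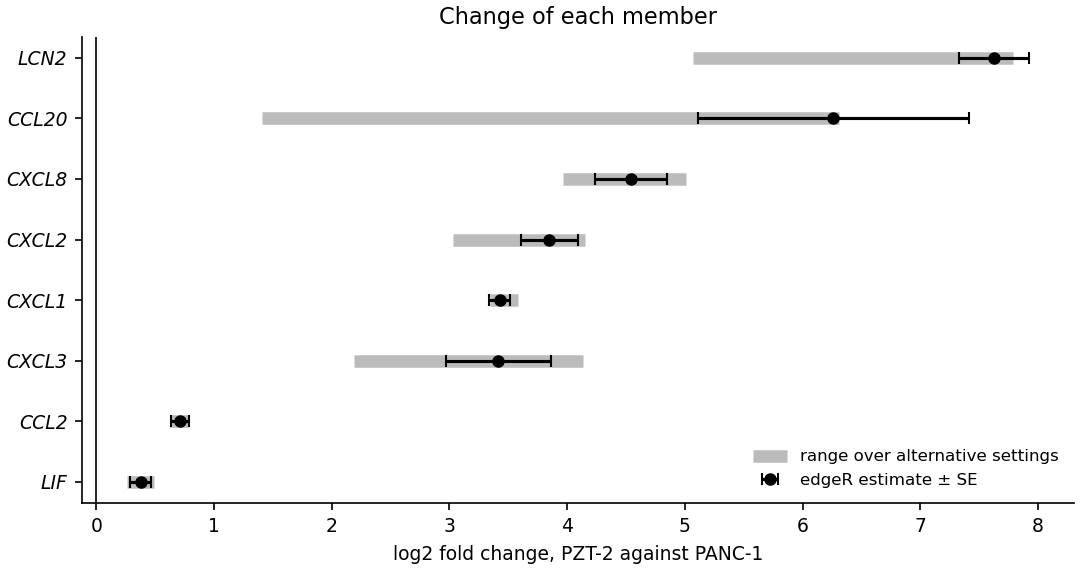
Fitted log2 fold change of each measured gene, PZT-2 against PANC-1, with its standard error (black) and the lowest and highest value over the alternative settings (grey). Every estimate and the whole of each grey range lie above 0, from 0.38 for LIF to 7.62 for LCN2, and the values of LCN2 and CCL20 depend on the small count or pseudocount added because their PANC-1 counts are near 0.

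IL1A and IL1B encode interleukin 1 alpha and interleukin 1 beta, the cytokines that start much of this program in senescent cells. Their transcripts NM_000575 and NM_000576 are listed in the deposited results table, but no library has a value for them. Each transcript with values had at least 5 recovered counts in 1 or more libraries, so a level of IL1A or IL1B cannot be given here, and whether it differed between the lines is not known. IL6, another central cytokine of the phenotype, has no value either.

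On the scale of TPM, which allows for transcript length, the order of levels in PANC-1 cells was CCL2 (464 ± 41.3 TPM, SD, n = 2), LIF (43.0 ± 4.45 TPM) and CXCL1 (15.1 ± 0.743 TPM). The rest followed at 1.81 ± 0.681 TPM for CXCL8, 1.17 ± 0.332 TPM for CXCL2, 0.576 ± 0.345 TPM for CXCL3 and 0.177 ± 0.0258 TPM for LCN2, and CCL20 came last. CXCL8 and CXCL2 overlapped between libraries, and so their order in PANC-1 cells is not resolved. In PZT-2 cells the order was CCL2 (755 ± 39.3 TPM), CXCL1 (162 ± 6.75 TPM), LIF (55.2 ± 2.55 TPM), CXCL8 (43.0 ± 12.5 TPM), LCN2 (38.6 ± 3.18 TPM), CXCL2 (16.6 ± 0.40 TPM), CXCL3 (6.08 ± 0.0755 TPM) and CCL20 (1.67 ± 0.356 TPM). The replicates of CXCL8, at 34.1 and 51.8 TPM, lay on either side of those of LCN2, and its mean differed from that of LIF by less than the SD of CXCL8. CXCL1 thus moved ahead of LIF, and LCN2 moved ahead of CXCL2 and CXCL3, in both PZT-2 libraries.

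Together the 8 genes summed to 499 and 552 TPM in PANC-1 and 1033 and 1124 TPM in PZT-2 libraries. CCL2 made up 87.1% and 89.3% of this sum in PANC-1 cells and 70.4% and 69.7% in PZT-2 cells, and CXCL1 2.92% and 2.83% against 15.2% and 14.9%. The 4 CXC chemokines alone summed to 18.1 and 19.2 TPM in PANC-1 cells and to 215 and 241 TPM in PZT-2 cells.

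**Figure D4:**
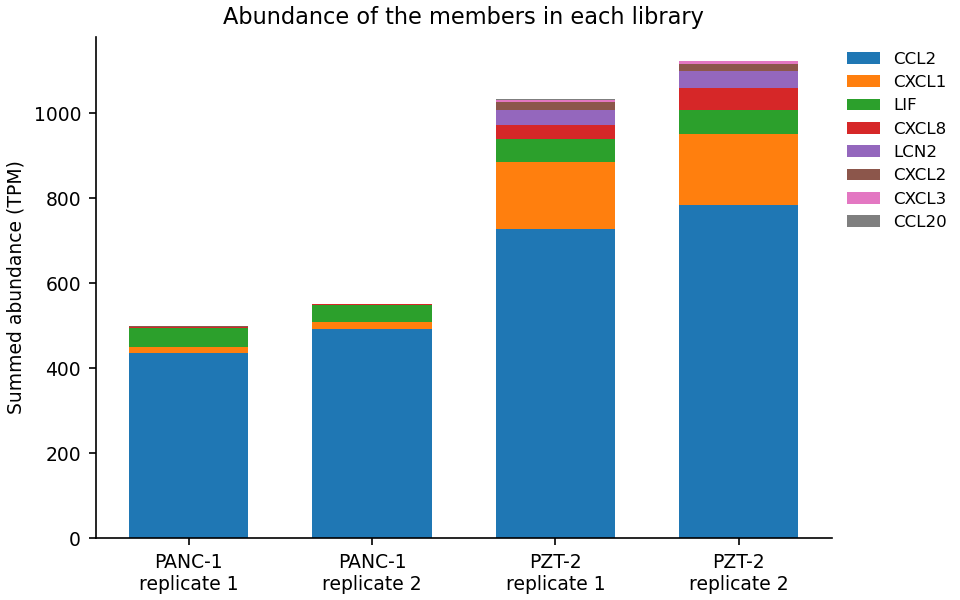
Stacked abundance (TPM, linear axis from 0) of the 8 measured genes in each of the 4 libraries. The bars reach 499 and 552 TPM in PANC-1 and 1033 and 1124 TPM in PZT-2 libraries, and CCL2 forms the largest segment in each.

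Other chemokines were few. Of 13 further CXC and CX3C chemokines 4 had values, and CXCL5, CXCL6 and CX3CL1 rose while CXCL16 did not pass, with none lower. CXCL5 and CXCL6 were tested only because of their PZT-2 counts, so this count and any median of the list say little, and none is given. The median log2 fold change over all genes tested was 0.001. CX3CL1, the membrane-bound fractalkine, went from 1744 and 1078 to 3370 and 3309 normalized counts (log2 fold change 1.25, adjusted p = 0.00544 from edgeR). CXCL9, CXCL10 and CXCL11, the chemokines that interferon gamma induces, had no values. Of 16 further CC chemokines 3 had values, and only CCL5, which encodes the T cell attractant RANTES, passed. It went from 51.8 and 45.2 to 160.0 and 147 normalized counts (log2 fold change 1.67, adjusted p = 0.00115 from edgeR), while CCL22 and CCL28 did not pass. Of 25 other cytokines and growth factors of the phenotype 19 had values, with 7 higher, 2 lower and a median of 0.26. Over all 15100 genes tested, 2223 were called higher and 2064 lower. IL18, CSF1, CSF2, TGFB1, INHBA, EREG and HBEGF rose. Among them, CSF2, which encodes the granulocyte and macrophage factor GM-CSF, went from 2.25 and 2.71 to 21.1 and 19.8 normalized counts. CSF2 was tested only because of its PZT-2 counts, so its place among the 7 is fixed in part by the count minimum. MIF and TGFB2 fell, TGFB2 by 1.54 on the log2 scale (adjusted p = 8.26e-04 from edgeR).

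The receptors through which the 10 factors act were for the most part low or without values in these epithelial cells. Of 13 receptors 7 had values, and CXCR1, CXCR2, ACKR1, CCR2, IL1R2 and LRP2 had none. IL1R1, the signalling receptor of interleukin 1, had 115 and 155 normalized counts in PANC-1 and 175 and 225.5 in PZT-2 libraries and did not pass (adjusted p = 0.0740 from edgeR). Its partner IL1RAP rose from 38.3 and 49.7 to 119.8 and 106 normalized counts (log2 fold change 1.35, adjusted p = 0.00484 from edgeR). LIFR, the receptor of LIF, fell from 744 and 792 to 505 and 386 normalized counts (log2 fold change -0.79, adjusted p = 0.00626 from edgeR), so LIF was higher and LIFR lower in the same libraries. IL6ST, the signal-transducing partner of LIFR, did not pass (adjusted p = 0.371). SLC22A17, which encodes a proposed LCN2 receptor, was called higher, from 0 in both PANC-1 libraries to normalized counts of 6.04 and 10.9. SLC22A17 reached the count minimum only through the PZT-2 libraries. CCR6, at 3.38 to 11.9 normalized counts over the 4 libraries, and ACKR2, at 4.50 to 10.9, did not pass.

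Downstream of these receptors some genes were called higher and some lower, as were 2223 and 2064 of all 15100 genes tested. Whether the lists named next differ from all genes in this was not tested. Of 12 genes of interleukin 1 receptor signalling all had values, with IRAK2 and TAB1 higher, IRAK1, TRAF6 and IKBKG lower and a median log2 fold change of -0.11. Of 14 genes of interleukin 1 processing and antagonism 11 had values, with CAPN2 higher, CAPNS1, CAST and SIGIRR lower and a median of -0.15. CAPN2 and CAPNS1 encode the subunits of the protease calpain 2, and CAST encodes its inhibitor. IL1RN, the receptor antagonist, had no value. In LIF receptor signalling the kinase gene JAK1 rose by 0.23 on the log2 scale (adjusted p = 0.0254 from edgeR), and STAT3, which encodes the main transcription factor downstream of LIF, fell by 0.55 (adjusted p = 0.00122 from edgeR). SOCS3, a feedback inhibitor that STAT3 induces, had 1204 and 1101 normalized counts in PANC-1 and 1089 and 1141 in PZT-2 libraries and did not pass (adjusted p = 0.683 from edgeR).

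Messages of several of these chemokines, CXCL8 and the GRO genes among them, are short-lived because proteins bind AU-rich elements or stem-loops at their ends. Of 13 genes of this decay and stabilization all had values, with ZFP36 and ZC3H12A higher, KHSRP, TIA1 and RC3H2 lower and a median of -0.08. For this list and those that follow, the background was 2223 genes called higher and 2064 lower of all 15100 tested. ZC3H12A, which encodes the nuclease regnase-1, rose from 188 and 181 to 487 and 512 normalized counts (log2 fold change 1.44, adjusted p = 3.24e-04 from edgeR). Among 18 transcriptional regulators of the phenotype other than NF-kappa-B subunits 17 had values, with CEBPD, JUN, FOSL2 and NFKBIZ higher, TFCP2L1 lower and a median of 0.19. NFKBIZ, an atypical I-kappa-B protein known as a co-activator at the LCN2 promoter, rose from 127 and 147 to 624 and 669.5 normalized counts (log2 fold change 2.23, adjusted p = 1.59e-04 from edgeR). CEBPB had 1169 and 749 normalized counts in PANC-1 and 1310 and 1410 in PZT-2 libraries and did not pass (adjusted p = 0.0878 from edgeR). CEBPD rose from 141 and 134 to 353 and 465 (log2 fold change 1.58, adjusted p = 0.00116 from edgeR). All 6 genes of cytosolic DNA sensing had values, with none higher and a median of 0.02, and 1 was called, TMEM173 (STING), which fell by 0.51 on the log2 scale (adjusted p = 0.0390 from edgeR).

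**Figure D5:**
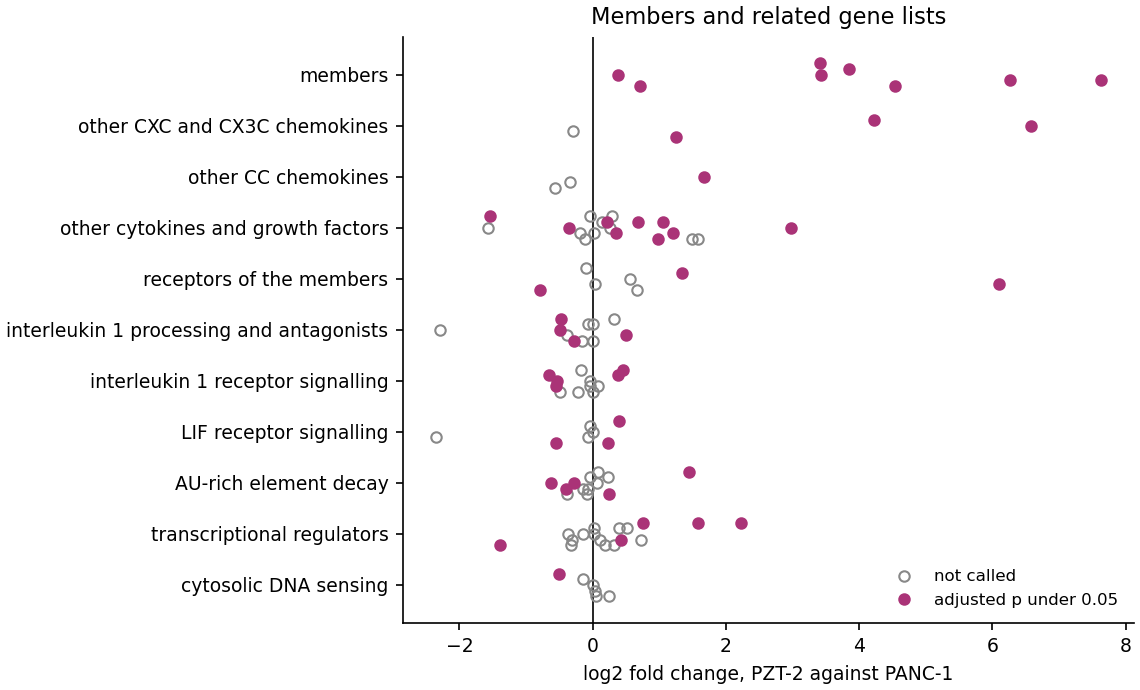
Log2 fold change of each gene tested in the list of 10 genes and in 10 related lists, with filled points for an adjusted p under 0.05. The chemokine lists hold the points beyond 3 on the right, apart from SLC22A17 among the receptors, and the signalling lists spread on both sides of 0.

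With 2 libraries against 2, an exact permutation test of a single gene cannot go below p = 0.333, so none was made. Tested as separate transcripts, the main transcripts of CXCL1 and LCN2 passed and those of the other 6 genes did not (adjusted p from 0.0669 for CXCL8 to 0.264 for LIF).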

How the data were processed

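Stranded mRNA libraries were read in pairs by the authors, who trimmed reads with Trim Galore 0.4.1, estimated transcript counts with kallisto 0.43.0 on RefSeq transcripts and compared the lines with sleuth 0.29.0. The deposited tables hold estimated counts and TPM for each library, and the authors' fold changes and p-values for each transcript, which were not used. The labels name hg19, so no coordinates of genes are given other than promoters on GRCh38.p14.

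The deposited estimated counts carry 1 factor per library, 1.16 and 0.935 for PANC-1 and 1.03 and 1.01 for PZT-2. Once it was undone, 45.2% to 46.4% of low values (0.5 to 30) of single-transcript genes were whole to within 0.01, against 0.815% to 2.41% as deposited. Undoing it was planned because an earlier look at these data had shown it. The counts were summed per gene and rounded. Of 31077 transcripts, 103 with 0.0466% of the counts were left unnamed and out. TPM are as deposited, and a library's TPM sum to between 940619 and 1000097. The highest sum, that of PANC-1 replicate 1, is more than plain TPM can reach, so the TPM may carry a scaling per library too. It was not undone, and TPM are compared between the lines as they stand.

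Genes that reached 5 counts in 2 or more libraries were tested with edgeR 4.0.16 (TMM, quasi-likelihood) in R 4.3.3, with Benjamini-Hochberg adjustment over all 15100 genes and a threshold of 0.05. Normalized counts are counts per effective library size, scaled to the mean library. The edgeR test reports no SE. Each SE given is the absolute log2 fold change divided by the square root of the F statistic of that test. The fit was checked on simulated data. Alternatives used RLE factors, DESeq2 1.42.0, limma-trend (limma 3.58.1) on log2(TPM + 1) and log2(TPM + 0.1), other filters, the deposited counts as they are, a replicate block, each library left out, separate transcripts and, added after seeing the data, the version 4 dispersion estimate of edgeR. Exact intervals are binomial, at 95%. The members and the 13 other lists were chosen with earlier results of these data known. All 10 members are named, and of other lists the genes past the threshold, with every measured receptor and marker. A few listed genes are left out of the text.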

Additional observations from a re-analysis of the deposited data

How the results depend on the processing

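The log2 fold changes of the 8 measured genes were above 0 under each alternative that gave a value, 103 values in all, of which 95 stayed past the threshold. Of the 8 that did not, 6 came from the test of separate transcripts and 2 from leaving out a PZT-2 library for LIF. The number of the 8 genes called higher fell to 4 with at least 10 counts in all 4 libraries, which left 4 to test, and to 2 among separate transcripts. It lay between 5 and 8 with each library left out: without either PZT-2 library, LCN2 and CCL20 did not reach the count minimum and LIF did not pass. DESeq2 called 7 and gave CCL20 no adjusted p. None was called lower under any alternative, DESeq2 included. That follows from the signs, since each of these values was above 0, and is no further check.

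The test of all genes gave 2223 higher and 2064 lower in PZT-2 cells. A 2-fold minimum gave 442 higher and 394 lower, and separate transcripts 21 and 24. With each library left out the counts ran from 1087 to 2439 higher and from 934 to 2209 lower, and a line left with 1 library was assumed to vary like the other. For separate transcripts and left-out libraries the cause was not tested. With DESeq2 the counts were 1668 and 1553.

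Libraries of both lines carry the replicate numbers 1 and 2. The differences between replicates 2 and 1 had a correlation of -0.02 between the lines over 15100 genes. This cannot decide whether libraries of the same number were handled together, since a shared step need not leave a common difference. The labels do not say. With a replicate block 1977 genes were called higher and 1760 lower, and all 8 measured genes were called higher. Replicate 2 was above replicate 1 in both lines for CXCL8, CXCL1 and CCL2. Depth limits CCL20, LCN2 and CXCL3, with 0, 2 and 9 counts over both PANC-1 libraries.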
